A study of Mus musculus with 9 samples.

Results

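The Th2 cytokine locus is the stretch of mouse chromosome 11 that holds the cytokine genes Il4, Il13 and Il5 and the gene Rad50. It was examined as the window chr11:53350000-53620000 of the mm8 build, defined by position, with earlier results of these data known. The window holds 540 bins of 500 bp, and in the genome 4733967 such bins hold a read in some library. It also holds 35 of the 43771 regions obtained by merging the 6 peak lists that the authors deposited. Chromatin from mouse CD4+ T cells was immunoprecipitated with an antibody against Stat5a, an antibody against Stat5b or control IgG, and sequenced (ChIP-seq). Th2 differentiation had lasted 8 h, 13 h or 2 rounds, which gives 9 libraries, 1 for each antibody and stage. The sources used here name no strain or culture conditions, and do not say whether cells were pooled. With 1 library per group there are no replicates, so each ratio below compares 2 libraries and has no p-value. Its 95% interval is an exact conditional (Clopper-Pearson) interval that covers counting error only.

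Il4, Il13 and Il5 encode the signature cytokines of Th2 cells: IL-4 drives further Th2 differentiation and antibody class switching, IL-13 acts on epithelium and smooth muscle, and IL-5 acts on eosinophils. Rad50, a subunit of a DNA double-strand break repair complex, lies between Il13 and Il5 and holds the locus control region of the cytokine genes. Stat5a and Stat5b are closely related transcription factors, phosphorylated downstream of the IL-2 receptor, and Stat5 is known to be needed for the Il4 gene to become accessible in Th2 cells.

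The order of the genes in the RefSeq annotation of GRCm38.p6 is Kif3a, Il4, Il13, Rad50, Il5 and Irf1. Peaks and reads are placed in mm8, gene positions in mm8 were not used here, and no region below is assigned to a gene. The RefSeq promoter table (GRCm38.p6, from 250 bases before to 50 bases after each start site) held 3 of the 4 genes: Il4, with 2 start sites, Il13 and Il5. The promoters were searched on both strands for TTCNNNGAA, the palindrome that Stat5 is known to prefer, and for the same ends spaced by 4 bases, the form known for Stat6. The 2 Il4 promoters are shown because each holds a match, in capitals. The first, at chr11:53618616-53618915 on the minus strand, holds the form spaced by 4 at position -167 from the start site. The other, at chr11:53617289-53617588 on the minus strand, holds TTCNNNGAA at position -4.
Il4, upstream start: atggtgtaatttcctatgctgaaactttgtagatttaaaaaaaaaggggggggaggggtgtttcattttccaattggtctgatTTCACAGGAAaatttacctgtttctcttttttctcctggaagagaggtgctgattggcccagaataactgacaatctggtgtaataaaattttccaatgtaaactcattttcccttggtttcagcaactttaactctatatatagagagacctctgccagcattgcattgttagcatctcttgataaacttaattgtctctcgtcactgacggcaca
Il4, other start: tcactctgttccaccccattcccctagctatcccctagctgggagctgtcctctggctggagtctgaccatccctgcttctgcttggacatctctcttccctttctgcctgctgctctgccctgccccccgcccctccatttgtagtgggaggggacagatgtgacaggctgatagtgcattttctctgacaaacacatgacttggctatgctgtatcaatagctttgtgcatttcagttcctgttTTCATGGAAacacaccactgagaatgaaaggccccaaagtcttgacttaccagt
Neither form was found in these letters of the Il13 and Il5 promoters. Of all 32851 promoters of this length in the table, 2726 (8.30%) hold TTCNNNGAA and 2284 (6.95%) the form spaced by 4. A match describes the sequence and is no measurement of binding.

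Total reads per library ranged from 3130228 (Stat5a at 8 h) to 9036070 (Stat5b at 13 h), and each library was scaled to a total of 1000000, so that levels are in RPM. Stat5a at 8 h was the shallowest library, with 1 read worth 0.319 RPM against at most 0.173 RPM in the other 8. Copies of a start and strand are counted, and distinct starts made up between 56.6% and 75.9% of the reads of the window. In 4 libraries 37.98% to 77.3% of the reads were 24 bp long and the rest 25 bp. The 3 Stat5b libraries, and Stat5a and IgG at 8 h, held 25 bp reads alone.

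Stat5a and Stat5b reads over the locus were highest after 2 rounds. Stat5a gave 172 RPM at 8 h, 205 RPM at 13 h and 351 RPM at the last stage, from 539, 1706 and 2330 reads. Stat5b gave 126, 227 and 610.4 RPM at these stages, from 863, 2050 and 4674 reads. IgG gave 124, 122 and 183 RPM, from 772, 920 and 1057 reads. At 8 h Stat5b was level with IgG and Stat5a was above it, whereas after 2 rounds Stat5b was the higher of the 2.

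The ratio to the IgG library of the same stage was higher at each later stage for both antibodies, though the Stat5a intervals of neighbouring stages overlapped slightly. For Stat5a it was 1.39 at 8 h (95% interval 1.24 to 1.56), then 1.68 (1.55 to 1.82) and finally 1.92 (1.78 to 2.07). For Stat5b it was 1.02 (0.921 to 1.12), 1.86 (1.72 to 2.01) and 3.34 (3.13 to 3.58). Both antibodies were set against the same IgG library at each stage, so their ratios are not independent. Among 9300 stretches of 270 kb laid side by side over the genome, 4 had a higher Stat5b ratio after 2 rounds than the locus and 33 did at 13 h. At 8 h 3485 did. For Stat5a 369, 14 and 14 stretches had a higher ratio at 8 h, 13 h and 2 rounds.

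The IgG level of the locus moved with stage too. From 13 h to 2 rounds IgG rose 1.49-fold (1.37 to 1.63), by 1.50 within the 35 regions and by 1.49 outside them, and its 25 bp reads alone gave 1.53. Only 4 of the 9300 stretches rose more in IgG, and the median stretch had a ratio of 0.987. Over the same step the locus rose 1.71-fold in Stat5a (1.60 to 1.82) and 2.69-fold in Stat5b (2.55 to 2.84). The part of the IgG rise in these ratios was not tested. The ratios to IgG above already contain it, and with the 3 IgG libraries pooled as control the Stat5b ratio after 2 rounds was 4.34 (4.14 to 4.55).

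The flanking stretches of 270 kb rose less. In the stretch before the window Stat5b had 123, 157 and 199 RPM across the stages, and in the stretch after it 111, 124 and 145 RPM. IgG after 2 rounds had 154 and 126 RPM in them. Stat5a after 2 rounds had 184 and 124 RPM, against 351 RPM in the window.

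**Figure D1:**
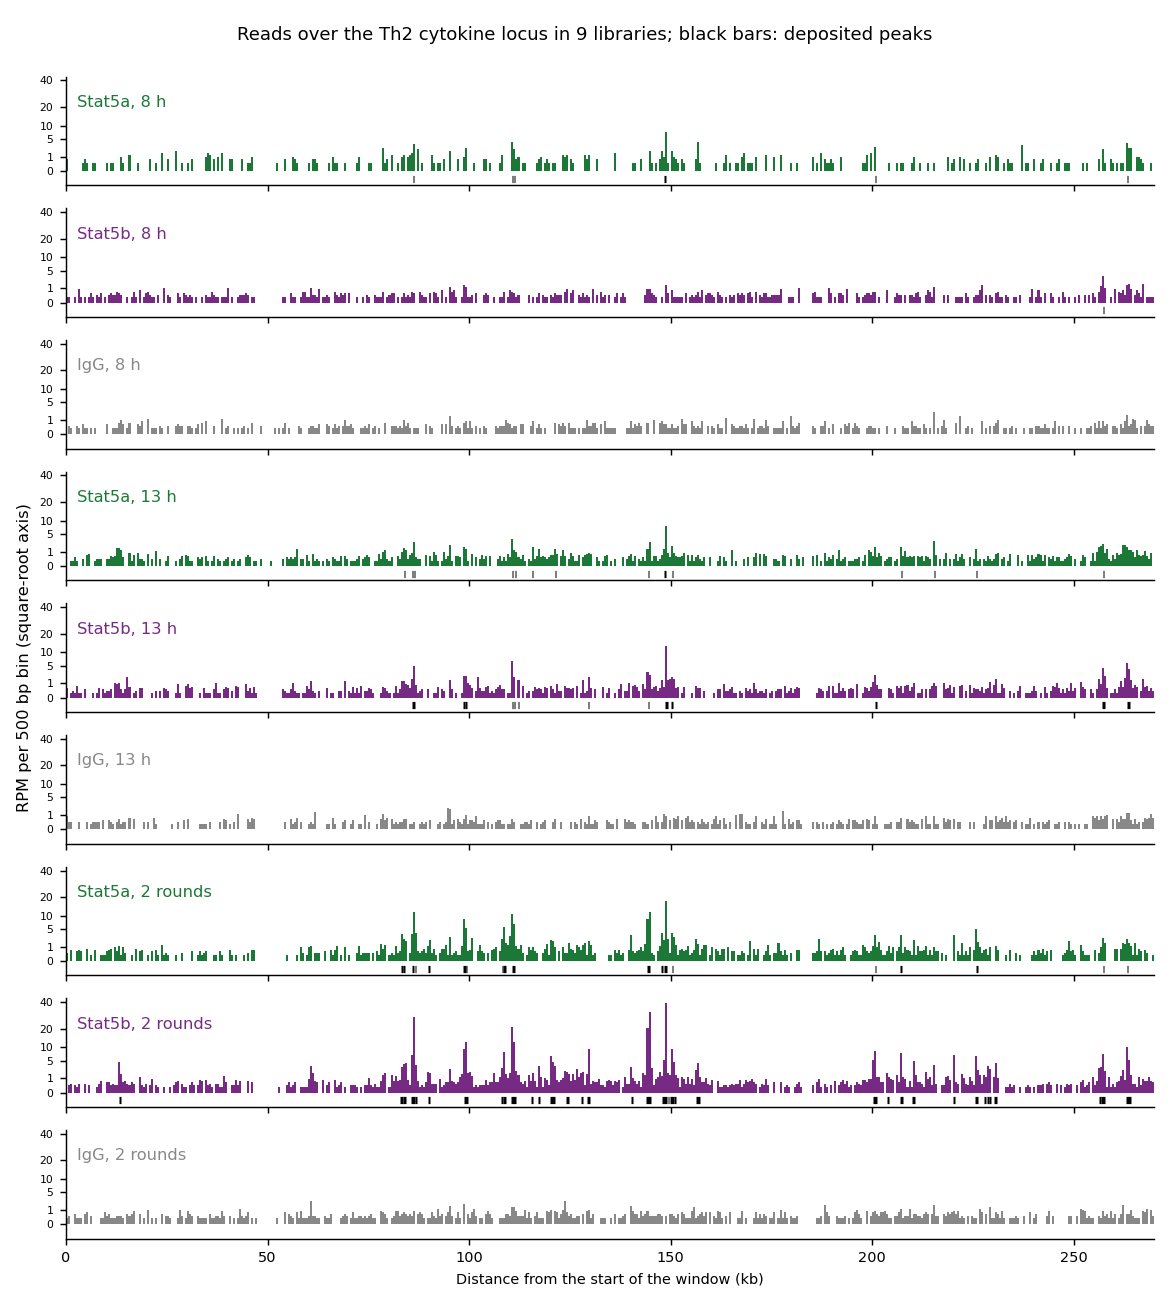
RPM in each 500 bp bin (y, square-root axis) by distance from the start of the window in kb (x), for Stat5a (green), Stat5b (purple) and IgG (grey) at 8 h, 13 h and 2 rounds, with deposited peaks as black bars. The tallest bin is the same, near 148 kb, in 5 of the 6 ChIP libraries and reaches 39.4 RPM in Stat5b after 2 rounds, while no IgG bin passes 2.59 RPM.

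Bins give the profile of the locus without the deposited peaks. A bin was called above IgG when the interval of the ratio of the 2 libraries lay wholly above 1. Among bins with a read in either library, Stat5a passed in 20 of 394 at 8 h (5.08%), where 3.15% of all bins of the genome did. It passed in 35 of 464 at 13 h (7.54%, background 2.82%) and in 53 of 474 after 2 rounds (11.2%, background 2.74%). Stat5b passed in 7 of 446 bins at 8 h (1.57%), near its background of 1.44%. It passed in 42 of 462 at 13 h (9.09%, background 2.34%) and in 74 of 494 after 2 rounds (15.0%, where the background was 2.37%). The same rule between IgG libraries called 3 bins from 8 h to 13 h (background 1.13%), 21 from 13 h to 2 rounds (1.75%) and 13 from 8 h to 2 rounds (1.07%). After 2 rounds 35 of the 53 Stat5a bins and 35 of the 74 Stat5b bins were the same bins. Both were called against the same IgG library, and no share over the genome is given, so this overlap only describes the calls. With 25 bp reads alone the counts of called bins after 2 rounds were 14 and 33, with 77.3% of the IgG reads of that stage left out.

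The bin chr11:53498501-53499000 held the most reads of the locus in 5 of the 6 ChIP libraries. Stat5a had 23, 65 and 116 reads there across the stages, or 7.35, 7.82 and 17.5 RPM. Stat5b had 10, 117 and 302 reads, reaching 39.4 RPM, and IgG had 3, 6 and 2. In Stat5b at 8 h the tallest bin was instead chr11:53607001-53607500, with 23 reads (3.35 RPM). A single bin, chr11:53494501-53495000, was called above IgG in all 6 ChIP libraries: Stat5a had 6, 23 and 77 reads and Stat5b 6, 23 and 246, against 0, 0 and 2 in IgG. A further 4 bins were called in 5 libraries. No share over the genome is given for bins called in several libraries, so these counts are a description.

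The deposited lists placed 6, 14 and 20 Stat5a peaks in the window across the 3 stages, of 5585, 14302 and 9791 in the genome. For Stat5b they placed 1, 13 and 36, of 3990, 13268 and 33692. Libraries differ in depth and the calling threshold is not known, so these counts describe the lists only. The single Stat5b peak at 8 h overlapped none of the 6 Stat5a peaks, where 58.2% of Stat5b peaks of 8 h in the genome overlapped one of Stat5a. By an overlap of 1 bp, all 20 Stat5a peaks after 2 rounds met a Stat5b peak of that stage, and 17 of the 36 Stat5b peaks met one of Stat5a. Over the genome 86.3% and 24.1% did. Of the peaks of 13 h, 8 of 14 for Stat5a met one of Stat5b, and 7 of 13 Stat5b peaks met one of Stat5a, against 40.04% and 42.3% over the genome. When at least 50% of both peaks had to be shared, 13 peaks of each list after 2 rounds and 5 of each at 13 h met. No share over the genome is given for that rule.

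The 35 merged regions covered 27.9 kb, 10.3% of the window, and are numbered here from 1 to 35 by position. The median stretch of 270 kb in the genome held 2 merged regions, and 24 of 9300 stretches held more than 35. A peak was present in 1 list only for 18 regions, 15 of which came from Stat5b after 2 rounds, so that 51.4% were in 1 list against 63.3% of all merged regions. The other 17 were in 2 (5 regions), 3 (4 regions), 4 (4 regions) or 5 lists (4 regions), and none was in all 6, where 2.63% of all merged regions were. Counting a peak of either antibody, 6 of the 35 regions had a peak at each of the 3 stages (17.1%, against 8.59% of all merged regions). By the same count 18 had one after 2 rounds alone (51.4%, against 48.0%). Every region of the locus with a peak of either antibody at 8 h also had one at 13 h and after 2 rounds. Of all merged regions 6.68% had a peak at 8 h but lacked one at 13 h, after 2 rounds or at both. The share with a peak at 8 h alone was 3.55%. For Stat5a alone, regions 23 and 35 had a peak at 8 h and none at 13 h. Because regions come from lists made on the same libraries, a peak in a library does not support the level in that library.

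Regions lay in 3 runs, separated by gaps over 20 kb that were chosen after the data were seen, plus region 1 on its own. Regions 2 to 22 spanned 74.2 kb (chr11:53432928-53507165), regions 23 to 33 spanned 30.9 kb (chr11:53550097-53581040), and regions 34 and 35 spanned 8.03 kb (chr11:53606248-53614276). The run of regions 2 to 22 held most of the reads of the 35 regions in each ChIP library and in each IgG library. It also covered 18.2 kb of the 27.9 kb of the regions. Stat5a gave 43.4 RPM there at 8 h, 44.8 at 13 h and 142 after 2 rounds. Stat5b gave 16.2, 61.3 and 289.8 RPM, and IgG 11.2, 11.4 and 20.04 RPM.

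**Figure D2:**
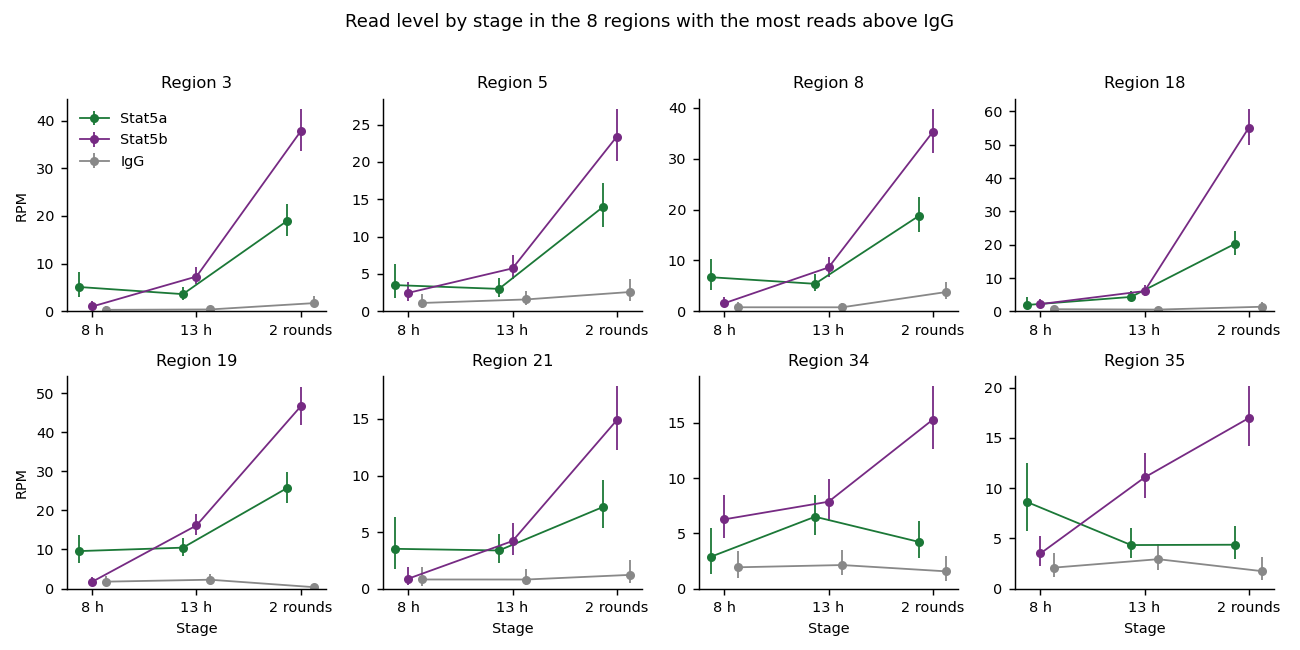
RPM (y) at 8 h, 13 h and 2 rounds (x) for Stat5a (green), Stat5b (purple) and IgG (grey) in the 8 regions with the most reads above IgG; bars are exact 95% Poisson intervals and cover counting error only. In regions 3, 5, 8, 18, 19 and 21 both antibodies are highest after 2 rounds, whereas Stat5a in regions 34 and 35 is highest at 13 h and at 8 h.

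Region 19 (chr11:53497643-53499227) stood highest above IgG on average. Stat5a had 9.58, 10.5 and 25.7 RPM there at 8 h, 13 h and 2 rounds, Stat5b had 1.75, 16.2 and 46.6 RPM, and IgG had 1.76, 2.26 and 0.346 RPM. Stat5b was thus level with IgG at 8 h, when Stat5a was already above it. This was the one region where Stat5b was called below Stat5a at 8 h, at a ratio of 0.182 (0.0850 to 0.367), where 4.26% of merged regions of the genome were called lower. Its Stat5b level then rose 9.25-fold by 13 h (5.14 to 18.3) and 2.89-fold more by 2 rounds (2.37 to 3.52).

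Region 18 (chr11:53493981-53495240), 2402 bp before region 19, became the highest region of the locus in Stat5b. Its levels were 1.92, 4.33 and 20.3 RPM in Stat5a, 2.18, 6.09 and 55.1 RPM in Stat5b and 0.641, 0.532 and 1.38 RPM in IgG. From 13 h to 2 rounds it rose 9.05-fold in Stat5b (6.82 to 12.2) and 4.69-fold in Stat5a (3.23 to 6.98). As a share of the reads in the 35 regions of the locus, which does not depend on depth, region 18 held 6.44% of Stat5b reads at 13 h (Wilson interval 4.98% to 8.29%) and 14.2% after 2 rounds (12.9% to 15.4%). Region 19 went the other way, from 17.1% (14.7% to 19.8%) to 12.0% (10.9% to 13.2%). In Stat5a region 18 held 6.34% (4.61% to 8.65%) and then 11.5% (9.79% to 13.4%), and region 19 15.3% and 14.6%.

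Region 3 (chr11:53435641-53437138) had 5.11, 3.61 and 19.0 RPM in Stat5a, 1.02, 7.30 and 37.7 RPM in Stat5b and 0.320, 0.399 and 1.73 RPM in IgG. Region 8 (chr11:53460363-53461753) had 6.71, 5.41 and 18.8 RPM in Stat5a, 1.60, 8.63 and 35.3 RPM in Stat5b and 0.801, 0.797 and 3.80 RPM in IgG. In both, Stat5a did not differ between 8 h and 13 h beyond counting error (ratios 0.706, 0.373 to 1.39, and 0.807, 0.471 to 1.43). Stat5b rose over that step, 7.17-fold (3.29 to 18.5) in region 3 and 5.39-fold (2.85 to 11.2) in region 8. In both, IgG rose too from 13 h to 2 rounds, from 3 to 10 reads and from 6 to 22 reads.

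Region 5 (chr11:53448557-53449760) had 3.51, 3.01 and 14.0 RPM in Stat5a, 2.48, 5.75 and 23.4 RPM in Stat5b and 1.12, 1.59 and 2.59 RPM in IgG. Region 21 (chr11:53499928-53501236) had 3.51, 3.37 and 7.22 RPM in Stat5a, 0.874, 4.21 and 14.9 RPM in Stat5b and 0.801, 0.797 and 1.21 RPM in IgG. Region 23 (chr11:53550097-53551143), the first of the middle run, had 2.88, 2.41 and 4.06 RPM in Stat5a, 1.16, 4.43 and 13.6 RPM in Stat5b and 0.320, 0.930 and 1.38 RPM in IgG. All 3 had their highest level of each antibody after 2 rounds, although for Stat5a in region 23 the rise from 13 h was within counting error (1.69, 0.912 to 3.18).

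Regions 4 and 17 held at most 4 reads of either antibody before 2 rounds. Both had peaks after 2 rounds alone and were named as the called region with the largest ratio of a comparison. Their few early reads and high ratios follow from that choice and are no support. Region 4 (chr11:53439773-53440336) held 0, 1 and 21 reads of Stat5a at 8 h, 13 h and 2 rounds, a 26.3-fold rise from 13 h (4.22 to 1086). It held 2, 0 and 27 reads of Stat5b, at least 10.6-fold higher after 2 rounds than at 13 h with the empty library set at a floor of 3 counts. Region 17 (chr11:53490047-53490591) held 0, 4 and 21 reads of Stat5a and 0, 2 and 27 of Stat5b, but also 9 IgG reads after 2 rounds. Its 21 Stat5a reads lay on 6 distinct starts and its 27 Stat5b reads on 17. Region 16 (chr11:53479344-53480078) was already above its 8 h level at 13 h in Stat5b. It held 1, 21 and 76 reads of Stat5b, and 6, 15 and 15 of Stat5a. It too was named for the largest ratio, here of Stat5b from 8 h to 13 h. Region 16 is in the set only through the Stat5b lists of 13 h and 2 rounds, so this rise is no support.

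Regions 34 and 35, nearest the end of the window, did not share the Stat5a rise. Region 34 (chr11:53606248-53607770) had 2.88, 6.50 and 4.21 RPM in Stat5a, 6.26, 7.86 and 15.3 RPM in Stat5b and 1.92, 2.13 and 1.56 RPM in IgG. It held the one Stat5b peak of 8 h, and 20.2% (15.3% to 26.1%) of the Stat5b reads in the 35 regions at that stage, against 3.92% (3.28% to 4.68%) after 2 rounds. Region 35 (chr11:53612913-53614276) had 8.63, 4.33 and 4.36 RPM in Stat5a, 3.49, 11.1 and 17.0 RPM in Stat5b and 2.08, 2.92 and 1.73 RPM in IgG.

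Summed over both, Stat5a had 11.5, 10.8 and 8.58 RPM, Stat5b 9.76, 18.9 and 32.3 RPM and IgG 4.01, 5.05 and 3.28 RPM. From 13 h to 2 rounds the pair changed by a ratio of 0.792 in Stat5a (0.558 to 1.12), while regions 2 to 22 rose 3.18-fold (2.82 to 3.60). The odds ratio of the 2 changes, which is free of the scaling to depth, was 0.249 (0.172 to 0.359) in Stat5a. In Stat5b it was 0.361 (0.289 to 0.451), with rises of 1.70-fold (1.40 to 2.08) and 4.73-fold (4.30 to 5.20). On distinct starts these odds ratios were 0.264 (0.165 to 0.416) and 0.463 (0.350 to 0.615). IgG had 0.372 (0.189 to 0.714) over the same step, from 38 to 19 reads in the pair and from 86 to 116 in regions 2 to 22. The IgG reads thus shifted between the 2 runs in the same direction, and their part in the Stat5 odds ratios was not tested. Regions 23 to 33 changed between the 2 runs in Stat5a, 2.11-fold (1.64 to 2.75), and with regions 2 to 22 in Stat5b, 4.71-fold (3.84 to 5.81). Regions 4, 6, 7, 11, 12, 14, 15, 17, 20, 22, 24, 26, 28 and 30 to 33 are in the set only through peaks after 2 rounds. Regions 34 and 35 had peaks at 8 h. The summed rises and the odds ratios include the regions that entered through 2 rounds alone, so the contrast between runs is no support.

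**Figure D3:**
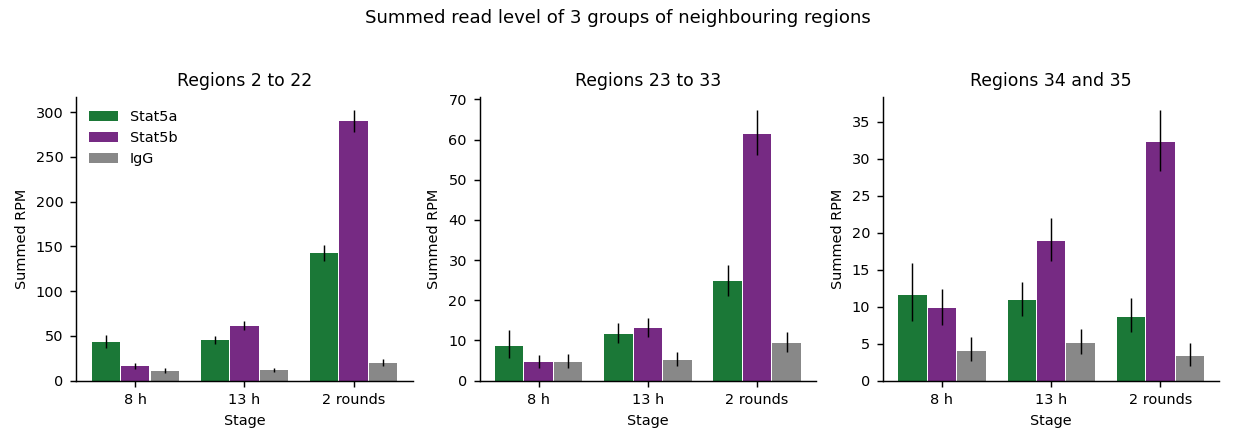
Summed RPM (y, linear from 0, scale differs between panels) at 8 h, 13 h and 2 rounds (x) in regions 2 to 22, 23 to 33 and 34 and 35, for Stat5a (green), Stat5b (purple) and IgG (grey), with exact 95% Poisson intervals for counting error. Stat5a rises from 44.8 to 142 RPM between 13 h and 2 rounds in regions 2 to 22 and goes from 10.8 to 8.58 RPM in regions 34 and 35. Many of regions 2 to 22 and 23 to 33 are in the set only through peaks after 2 rounds.

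Ratios between stages were then taken over all 35 regions. A region was called higher or lower where the interval of its ratio lay wholly above 2 or below 0.5, and regions with no read in both libraries could not be called. From 8 h to 13 h Stat5a over the regions summed did not differ beyond counting error, at a ratio of 1.06 (0.900 to 1.25). Only region 27 was called higher (background 0.297%) and only region 22 lower (background 2.23%). Region 27 (chr11:53565325-53565529) went from 0 to 25 Stat5a reads but held 14 IgG reads at 8 h, so it was not above IgG on average over the stages. Region 22 (chr11:53506216-53507165) held 16 Stat5a reads at 8 h and 8 at 13 h, with the 16 reads on 6 distinct starts. Neither call was made when each start was counted once. Region 27 is in the set only through the Stat5a list at 13 h, so its level there is no support.

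Stat5b rose 3.05-fold (2.62 to 3.56) from 8 h to 13 h over the regions summed. The call was met by 6 regions, 3, 8, 16, 19, 21 and 35 (17.1%, background 5.58%), and none was lower (background 0.321%). Regions 16 and 21 are in the set only through peaks of 13 h and 2 rounds, region 16 through Stat5b lists alone. Their rise is no support. The median ratio of the 30 regions with reads in both libraries was 2.49, against 1.90 over the genome. IgG over this step had a ratio of 1.06 (0.836 to 1.34), with 0 regions higher (background 0.286%).

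From 13 h to 2 rounds the regions summed rose 2.59-fold in Stat5a (2.34 to 2.86) and 4.12-fold in Stat5b (3.82 to 4.45). In Stat5a 10 of 34 regions were called higher (29.4%, background 7.79%): 3, 4, 5, 6, 7, 8, 17, 18, 28 and 29. Region 11 (chr11:53467065-53467570) was called lower (background 4.03%), from 12 reads on 5 distinct starts to 0. That call was not made when each start was counted once (upper limit of the ratio 1.41). In Stat5b 24 of 35 were called higher (68.6%, background 26.3%) and 0 lower (background 0.668%). Regions 1, 4, 6, 7, 11, 12, 14, 17, 22, 24, 28 and 31, all called higher in Stat5b, had peaks after 2 rounds alone. They are in the set only through that stage, so their rise in either antibody is no support. The median ratio was 2.50 in Stat5a and 4.27 in Stat5b, against 1.25 and 2.58 over the genome. No region of the locus was called higher in IgG (background 0.718%), although IgG summed over them rose 1.50-fold (1.22 to 1.86).

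From 8 h to 2 rounds 8 regions were called higher in Stat5a (23.5%, background 4.12%) and 28 in Stat5b (80.0%, background 45.5%). Regions with peaks after 2 rounds alone are among both, and their rise is no support. The sums rose 2.74-fold (2.36 to 3.20) and 12.6-fold (10.9 to 14.5), and IgG had 0 regions higher (background 0.621%). Merged regions of the whole genome also rose in Stat5b, so the changes were also taken relative to the median merged region. Of all merged regions 48.0% had peaks after 2 rounds alone, so their own rise to that stage is no support. By that scaling the calls in Stat5b fell to 1 from 8 h to 13 h, 6 from 13 h to 2 rounds and 5 from 8 h to 2 rounds, and the sums to 1.60 (1.38 to 1.87), 1.60 (1.48 to 1.73) and 2.60 (2.27 to 3.01). In Stat5a from 13 h to 2 rounds, 5 regions were called higher and the sum was 2.07 (1.87 to 2.29). No share over all merged regions is given by that scaling, so these counts describe the locus alone.

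**Figure D4:**
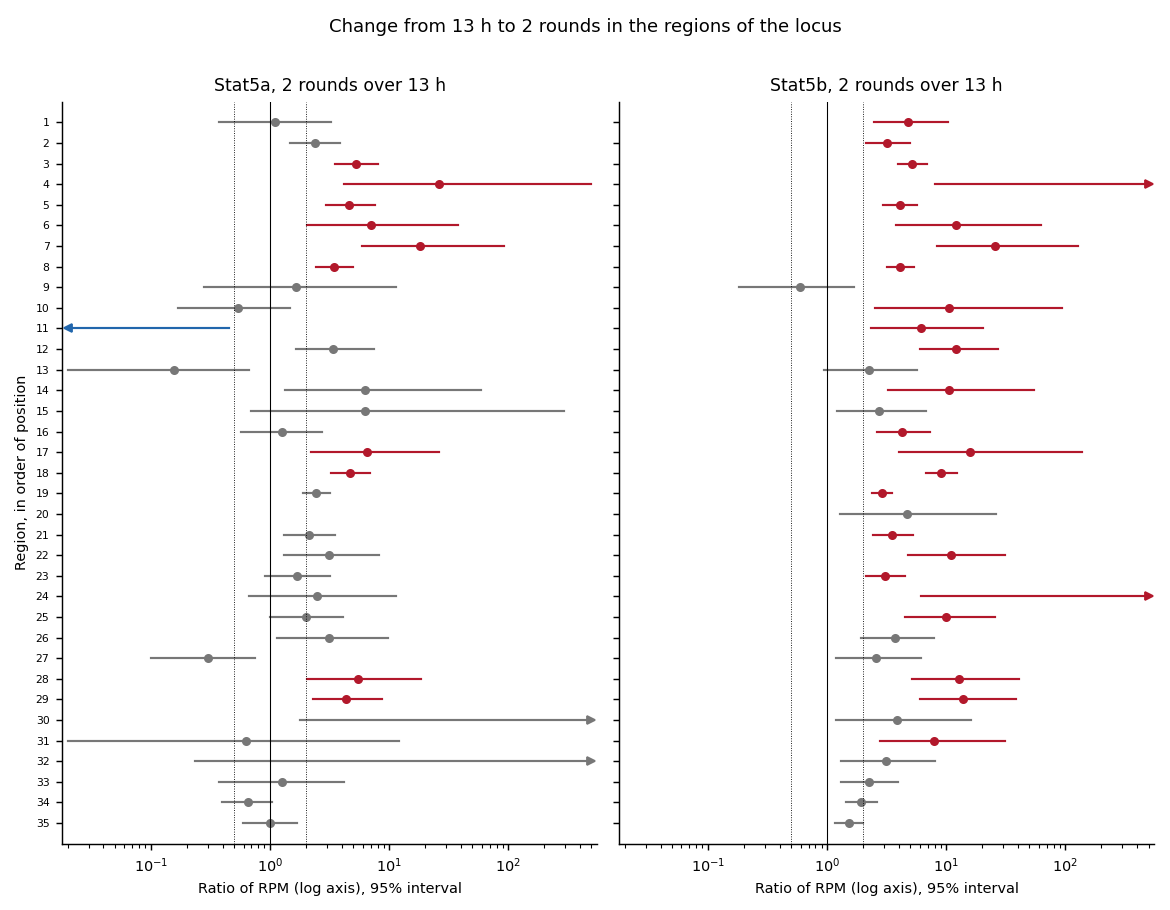
Ratio of RPM after 2 rounds over 13 h (x, log axis) with its 95% interval for each of the 35 regions in order of position (y), in Stat5a (left) and Stat5b (right); red is called higher, blue called lower, arrows mark regions with 0 reads in a library, and dotted lines mark 0.5 and 2. In Stat5b 24 regions are called higher and in Stat5a 10 are, and in Stat5a the points of regions 34 and 35 lie at 0.648 and 1.01. Some of those called are in the set only through peaks after 2 rounds.

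The 2 antibodies were compared at each stage. At 8 h Stat5b over the 35 regions summed was 0.481 of Stat5a (0.395 to 0.586), at 13 h 1.38-fold (1.24 to 1.54) and after 2 rounds 2.20-fold (2.06 to 2.36). No region was called either way at 13 h (background 2.11% higher and 5.41% lower). After 2 rounds 11 were called higher in Stat5b (31.4%, background 18.2%): 1, 11, 16, 18, 20, 23, 31, 32, 33, 34 and 35. Of these, 1, 11, 20, 31, 32 and 33 are among the regions only through the Stat5b list of that stage, so their level there is no support. Region 16 is among them only through the Stat5b lists of 13 h and 2 rounds, so the same holds for it. Regions 34 and 35 were 3.63-fold (2.38 to 5.69) and 3.89-fold (2.59 to 6.04) higher in Stat5b. The median merged region of the genome was 2.43-fold higher in Stat5b at that stage, above the 2.28 of the locus. Relative to the median merged region the sum at 8 h was 0.879 (0.721 to 1.07), no longer below 1 beyond counting error, and region 19 was not called lower. By that scaling the sum after 2 rounds turned to 0.906 (0.847 to 0.971) and 1 region was called higher, with no share over the genome given. The difference between antibodies at 8 h and after 2 rounds thus depends on the scaling, and antibody efficiency cannot be told apart from occupancy.

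Against IgG of the same stage, Stat5a was called higher in 5 regions at 8 h (3, 8, 19, 22 and 35; 15.6%, background 13.1%) and in 5 at 13 h (3, 8, 18, 19 and 29; 14.7%, background 14.3%), near the background both times. After 2 rounds it was called in 11 (33.3%, background 15%). Stat5b was called in none at 8 h (background 3.21%), in 9 at 13 h (25.7%, background 18.7%) and in 27 after 2 rounds (77.1%, background 49.3%). Regions with peaks at the stage compared alone, such as region 9 at 13 h, are among those called. Their excess over IgG there is no support. Over the regions summed Stat5a was 3.07-fold (2.46 to 3.86), 3.08-fold (2.59 to 3.68) and 5.30-fold (4.55 to 6.21) above IgG at 8 h, 13 h and 2 rounds. Stat5b was 1.48-fold (1.18 to 1.85), 4.26-fold (3.60 to 5.06) and 11.7-fold (10.1 to 13.6). Outside the regions the excess was smaller, at most 1.37-fold (1.25 to 1.50) in Stat5a and 1.48-fold (1.36 to 1.61) in Stat5b. With 25 bp reads alone, 5 regions in Stat5a and 12 in Stat5b were called after 2 rounds, with no share over the genome given.

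Reads on the 2 strands flank a bound site in ChIP-seq. For this, each start and strand was counted once, within a region and 200 bp on either side. Regions with at least 10 such starts on each strand were used. The median 5' end on the minus strand lay after that on the plus strand in 8 of 8 regions in Stat5b at 13 h (median 154 bp). After 2 rounds it did in 19 of 22 in Stat5b (119 bp) and in 9 of 10 in Stat5a (114 bp). In Stat5a at 13 h it did in 3 of 5 (19 bp, from -363.5 to 509 bp), and at 8 h 1 region in each ChIP library had enough starts. Region 5 was an exception in both libraries after 2 rounds, at -114.5 and -156.5 bp. As a description over the 35 regions, which share libraries and chromatin, Spearman's rho between the RPM per kb of Stat5a and Stat5b was 0.320 at 8 h, 0.639 at 13 h and 0.681 after 2 rounds. The same measure between Stat5b and IgG was 0.423, 0.564 and 0.326.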

How the data were processed

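Stat5a, Stat5b and IgG ChIP-seq of mouse CD4+ T cells gave 9 libraries, 1 per antibody and stage. The authors deposited 1 list of mapped reads per library and 1 list of peaks per ChIP library, as start and end positions in bp of mm8, and the peaks have no height or score. Not given in the sources used here are the aligner, the peak caller and its threshold, and whether IgG entered the calls. The 5' end of each read was counted, with that of 24 bp reads moved 1 bp upstream, an offset that is clear in 1 of the 4 libraries with such reads. Reads were scaled to RPM by library total (3130228 to 9036070). The 6 peak lists were merged where they overlapped by 1 bp. Ratios carry exact conditional 95% intervals and shares of reads Wilson intervals. A fold against a library with 0 reads uses a floor of 3 counts. Because 1 library per group allows no test, no p-value is given, and calls rest on the intervals. The regions named are 8 chosen for their RPM above IgG, those in at least 4 lists and, per comparison and direction, the called region with the largest ratio. The members, the window and the rules were chosen with earlier results of these data known. Alternatives were distinct starts, 2 other scalings, pooled IgG, 25 bp reads alone, reads moved 75 bp downstream, bins of 1000 bp, other call limits, regions in at least 2 lists and 50% overlap. Promoter sequences are from RefSeq (GRCm38.p6). Counting and intervals used scipy 1.17.1, pandas 2.3.3 and numpy 2.4.6 under Python 3.11.15, and figures matplotlib 3.10.9.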

Additional observations from a re-analysis of the deposited data

Results flagged for a closer look

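In 3 regions of the locus the 2 antibodies changed in opposite directions between the same stages, each with an interval wholly on its side of 1. This difference was not tested, since each ratio compares 2 libraries without replicates. No share over all merged regions is given for this pattern, so the count describes the locus alone. In region 35 Stat5b rose 3.17-fold (2.01 to 5.17) from 8 h to 13 h while Stat5a had a ratio of 0.502 (0.296 to 0.860). From 8 h to 2 rounds the ratios there were 4.86 (3.13 to 7.85) in Stat5b and 0.506 (0.289 to 0.888) in Stat5a. With each start counted once, the Stat5a ratios were 0.601 (0.314 to 1.18) and 0.625 (0.314 to 1.26), no longer below 1 beyond counting error. In region 11 Stat5b rose 6.14-fold (2.32 to 20.5) from 13 h to 2 rounds, and Stat5a went from 12 reads on 5 distinct starts to 0, a ratio of 0 (upper limit 0.450). Counted once per start the upper limit was 1.41, no longer below 1, and Stat5b had 6.13 (1.76 to 32.8). In region 27 the ratios over that step were 2.60 (1.18 to 6.14) in Stat5b and 0.300 (0.101 to 0.750) in Stat5a, whose 25 reads at 13 h lay on 11 distinct starts. Counted once per start they were 2.11 (0.715 to 6.94) and 0.586 (0.160 to 1.83), and region 27 held 14, 6 and 9 IgG reads at the 3 stages. Region 11 is in the set only through the Stat5b list after 2 rounds, and region 27 only through the Stat5a list at 13 h. Their levels in those libraries are no support.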

How the results depend on the processing

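No paired analysis was possible because each group has 1 library. Of 301 values under alternatives, 223 kept their direction and their side of the limit or, for counts, stayed within 1.5 times. Shares over the genome are given for the main settings only, so counts under alternatives describe the locus alone. With the 3 IgG libraries pooled, the ratio of the window to IgG in Stat5b at 8 h was 0.894, and bins above IgG numbered 34 (Stat5a) and 21 (Stat5b) at 8 h and 96 and 141 after 2 rounds. With each start counted once, bins numbered 7 and 1 at 8 h, 11 and 16 at 13 h and 21 for Stat5a after 2 rounds. An interval wholly above 2 left 8 and 1 bins at 8 h, 10 and 14 at 13 h and 24 and 44 after 2 rounds. With 25 bp reads alone, bins numbered 16 and 26 at 13 h and 14 and 33 after 2 rounds. The summed ratio of Stat5a from 8 h to 13 h was 1.22 by median scaling and 1.24 with 25 bp reads alone, both then above 1. Stat5b over Stat5a by median scaling was 0.879 at 8 h, no longer below 1 beyond counting error, and 0.906 after 2 rounds, a reversal. Scaling by the median merged region is, by its construction, relative to the rise of merged regions in Stat5b. Of all merged regions 48.0% had peaks after 2 rounds alone. The median stretch of 270 kb had a Stat5b ratio of 0.848 from 13 h to 2 rounds, so the rise was not one of the whole genome. For the other changes the cause was not tested.

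Regions called higher from 13 h to 2 rounds with each start counted once numbered 6 in Stat5a and 17 in Stat5b, and from 8 h to 2 rounds 2 in Stat5a. Among regions in at least 2 lists, 15 rose in Stat5b from 13 h and 16 from 8 h to 2 rounds, and 5 were higher in Stat5b than in Stat5a after 2 rounds. That last count was 6 with each start counted once and 7 with 25 bp reads alone. With an interval wholly above 1 in place of 2, it was 26, and the rise in Stat5a was called in 4, 19 and 14 regions (8 h to 13 h, 13 h to 2 rounds, 8 h to 2 rounds) and in Stat5b in 12 from 8 h to 13 h. By 50% overlap, 5 of 14 Stat5a and 3 of 13 Stat5b peaks of 13 h were found after 2 rounds, against 11 and 12 by 1 bp. Over the genome 25.2% and 77.2% were found by 1 bp, and no share is given for 50%. The median peak of the window was 258 bp wide at 13 h and 404 bp after 2 rounds in Stat5a. In Stat5b it was 480 and 649.5 bp wide, and the part of width in the 50% counts was not tested. The median bin of the window held between 0 reads (Stat5a at 8 h) and 3 reads (Stat5b after 2 rounds), so that differences in single bins were often not detectable at this depth.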
